A study of Mus spretus with 12 samples.

Results

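The 35 genes described here belong to the unfolded protein response and the integrated stress response, which cells use when proteins misfold or amino acids run short. They were taken by name, as the array spots other than controls whose gene name equalled a member of a fixed list. The list was drawn up with earlier results of these data known. All 35 were found and passed the filter on dim probes, out of 18678 genes tested on an array with 37074 gene names. Of their 64 probes 57 were kept, and the brightest kept probe of every member was well above background on all 12 arrays.

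Livers came from male mice of SPRET/EiJ, an inbred strain derived from wild Mus spretus, aged 20 months at the start and 22 months at sampling. In the PXDDE group the Teklad diet carried 450 mg/kg of p,p'-DDE in corn oil for 60 days, and the drinking water held Pedro Ximenez grape must, with 85 mg/L of polyphenols and 31 g/L of sugar in equal parts of glucose and fructose. The DDE group had the same p,p'-DDE feed without the must; p,p'-DDE is a long-lived metabolite of the insecticide DDT. The control group ate the Teklad diet with corn oil alone. Each group has 4 one-colour arrays. The series title speaks of protection by the must against liver injury, so the arrays ask what p,p'-DDE changed and what the must changed on top of it. The PXDDE and DDE groups differ by the whole drink, sugar and polyphenols together. The sources do not say whether RNA of several mice was pooled, so the p-values rest on differences among arrays that may be only technical.

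The endoplasmic reticulum (ER) folds secreted and membrane proteins, and the liver secretes much of the protein of blood plasma. When unfolded proteins build up there, the sensors IRE1, PERK and ATF6 signal to the nucleus, where spliced XBP1 and cleaved ATF6 switch on chaperones and the machinery that sends misfolded proteins back to the cytosol for destruction. PERK also phosphorylates eIF2, which slows translation in general but favours that of ATF4, a factor that turns on amino acid synthesis genes, CHOP and feedback genes. Other kinases that sense amino acid shortage, viral RNA or haem shortage reach ATF4 by the same step, hence the name integrated stress response.

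The arrays read each gene with probes of 60 bases. The 6 probes shown here are a choice of examples made after the values were seen, to show how a chaperone, isomerases, CHOP and Asns were read. Their bases can be read as codons without a stop in at least 1 frame, as can those of probes of Chac1, Syvn1, Dnajb11 and Derl1 that are not shown, and no base is set in capitals because no part of them was singled out. Hspa5 at chr2:34631136-34631195 and chr2:34630699-34631075 (mm9, plus strand) gave the same calls as the brightest probe of that gene. Pdia3 at chr2:121263343-121263402 (plus strand) and Pdia4 at chr6:47746516-47746575 (minus strand) are the brightest probes of those genes, and so is Ddit3 at chr10:126732518-126732821 (plus strand). Asns at chr6:7626110-7626255 (minus strand) is a dimmer probe of its gene. The placements of the second Hspa5 probe, the Ddit3 probe and the Asns probe span more genome than the 60 bases of the probe, so these probes bridge a gap in the genome.
Hspa5, first: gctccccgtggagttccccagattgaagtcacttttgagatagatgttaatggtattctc
Hspa5, second: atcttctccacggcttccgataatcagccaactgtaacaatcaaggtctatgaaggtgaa
Pdia3: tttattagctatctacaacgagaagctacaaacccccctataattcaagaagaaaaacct
Pdia4: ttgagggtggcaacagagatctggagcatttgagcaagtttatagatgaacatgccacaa
Ddit3: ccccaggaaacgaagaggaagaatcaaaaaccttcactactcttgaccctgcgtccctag
Asns: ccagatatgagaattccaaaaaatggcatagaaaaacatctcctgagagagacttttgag

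Between 50.12% and 52.01% of the spots other than controls were well above background on each array. Of 14 hepatocyte markers, 13 or 14 were above background on every array, with a mean log2 level of 8.48 to 8.56 on the PXDDE arrays, 8.62 to 8.65 on the DDE arrays and 8.69 to 8.79 on the control arrays. Markers of other tissues were present and moved with the groups. The summed linear level of 18 pancreatic acinar markers was 3330 to 3460 on the PXDDE arrays, 780 to 860 on the DDE arrays and 1010 to 1070 on the control arrays. For the adrenal cortex it was 45.3 to 49.9, 3.55 to 3.69 and 27.1 to 29.2 on the PXDDE, DDE and control arrays, with 8 of 9 markers tested, and for skeletal muscle 123 to 131, 166 to 181 and 440 to 453 with 10 of 10. Kupffer cell and macrophage markers, 12 of 12 above background, summed to 61.8 to 65.3 on the PXDDE arrays, 82.1 to 87.4 on the DDE arrays and 103 to 109 on the control arrays. Adipocyte markers summed to 47.3 to 55.8, 65.3 to 71.6 and 75.2 to 81.7 on the PXDDE, DDE and control arrays. Their mean log2 level ordered PXDDE and DDE the other way, at 0.64 to 0.79, 0.26 to 0.40 and 1.01 to 1.21, with Adipoq, Retn and Cfd called higher and Cidec lower in PXDDE against DDE. B and plasma cell markers summed to 12.8 to 13.9, 13.4 to 14.1 and 15.4 to 16.2, on the PXDDE, DDE and control arrays. Their mean log2 level was -2.33 to -2.08, -2.06 to -1.99 and -1.43 to -1.35 in the same order. Of the 8 tested, 5 were called lower and 1, the bright Sdc1, was called higher in each comparison with control. In a bulk tissue, fewer cells of a type and less RNA per cell cannot be told apart, and the part of these tissues in the results was not tested. Levels are log2 of the processed signal relative to the 75th percentile of the array, and a gene was called at a Benjamini-Hochberg adjusted p under 0.05 in the limma fit over all genes.

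Most of the genes were higher with p,p'-DDE. In DDE against control, 26 of the 35 were called, where 50.3% of all genes tested were: 23 were called higher and 3 lower, against 24% and 26.3% of all genes. The median change of the 35 was 0.26 on the log2 scale, against -0.02 over all genes. As a group these genes were not lower with the must: in PXDDE against DDE, 24 were called against 49.9% of all genes, 18 of them higher and 6 lower, against 20.2% and 29.7%, with a median of 0.18 against -0.04. In PXDDE against control 30 were called against 70.9% of all genes, 27 of them higher and 3 lower, against 31.6% and 39.3%, with a median of 0.43 against -0.06. The changes were mostly modest: 14 of the 35 were called and at least 1.5-fold higher in PXDDE against control, where 9.82% of all genes were, and 2 were at least 1.5-fold lower, where 21.6% were. The same counts were 2 higher and 1 lower in DDE against control, with 3.33% and 8.48% of all genes, and 3 higher and 1 lower in PXDDE against DDE, with 2.92% and 8.18%.

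The 3 comparisons share arrays pairwise, so their values stand side by side and no overlap between them is counted. The groups did not overlap for 25 members in DDE against control, where 46.4% of all genes had no overlap. They did not overlap for 24 members in PXDDE against DDE (44.7% of all genes) and for 29 in PXDDE against control (65.2%). With so many genes changed, the scaling matters. Of all called genes 47.7%, 40.6% and 44.5% were higher in DDE against control, PXDDE against DDE and PXDDE against control. With each array centred on its median instead, these shares were 81.3%, 66.3% and 73.1%, and the median of all genes moved to 0.21, 0.10 and 0.32. Quantile normalisation gave 52.4%, 52.2% and 53.4%, and the deposited values 52%, 52.6% and 53.7%. The median of the members minus that of all genes stayed between 0.20 and 0.31, between 0.20 and 0.27 and between 0.48 and 0.60 in the 3 comparisons under quantile normalisation, median centring, normexp background correction and the deposited values. Median centring shifts all genes of an array by the same amount, so it could hardly move this difference and does not test it.

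**Figure D1:**
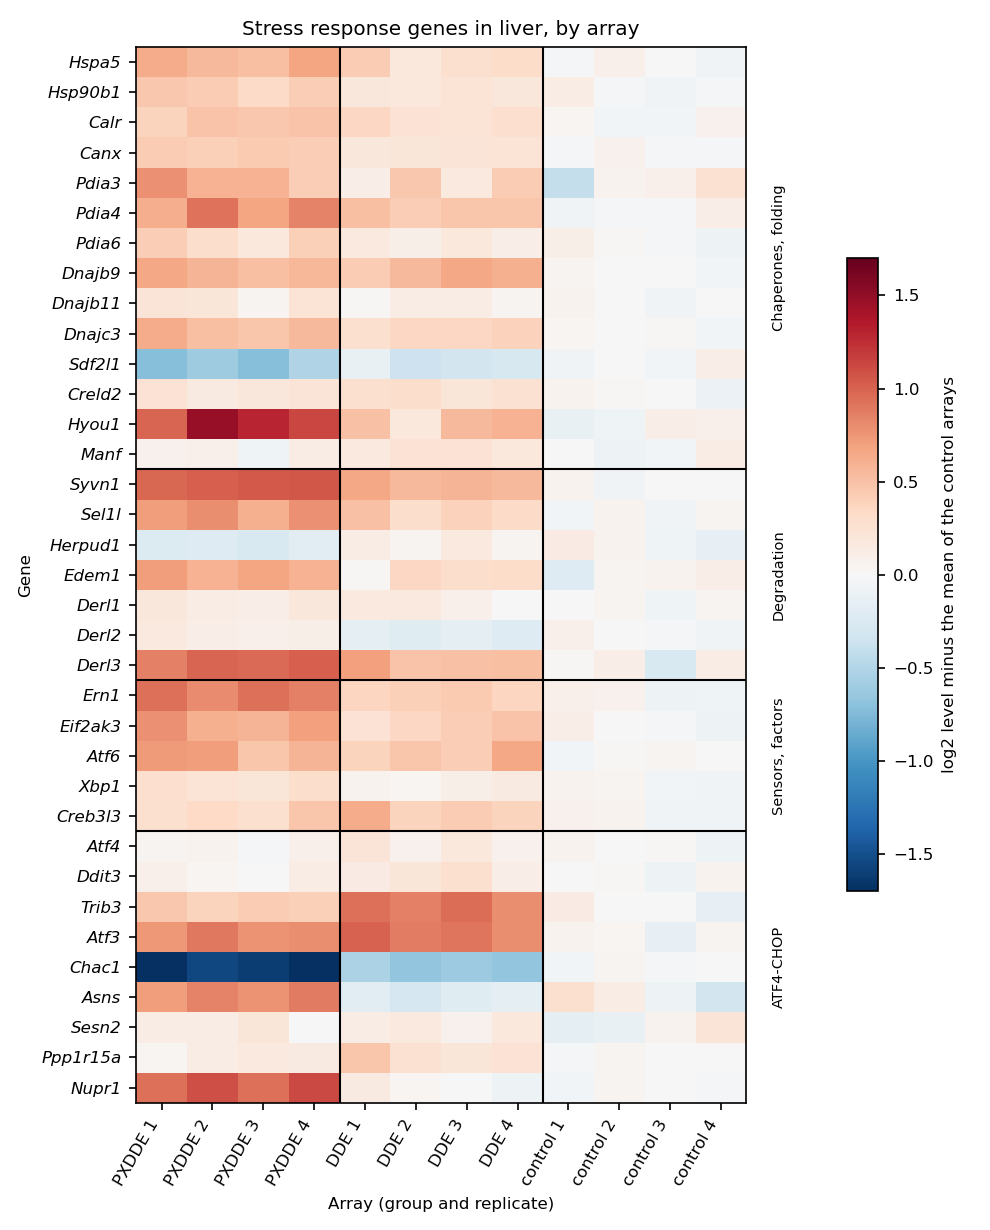
The colour gives the log2 level of each gene (rows, by role) on each array (columns, by group) minus the mean of the 4 control arrays. Chaperone, degradation and sensor genes were mostly red on the DDE arrays and darker red on the PXDDE arrays, while Chac1 was blue in both. Trib3 was redder on the DDE than on the PXDDE arrays, and Asns and Nupr1 were each redder on the PXDDE arrays than in the other groups.

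Among the sensors and their transcription factors, 4 of 5 rose in DDE against control, 3 of 5 in PXDDE against DDE and 5 of 5 in PXDDE against control, where 24%, 20.2% and 31.6% of all genes were called higher. None of the 5 fell in these comparisons, where 26.3%, 29.7% and 39.3% of all genes did. Ern1 encodes IRE1, the kinase and RNase that splices Xbp1 mRNA. Its level was 3.06, 2.94, 3.06 and 2.98 on the PXDDE arrays, 2.49, 2.53, 2.57 and 2.50 on the DDE arrays and 2.22, 2.20, 2.04 and 2.06 on the control arrays. The 3 groups did not overlap and lay in the order PXDDE, DDE, control from high to low. Ern1 rose 1.31-fold in DDE against control (adjusted p = 9.78e-05), 1.4-fold in PXDDE against DDE (adjusted p = 1.98e-05) and 1.84-fold in PXDDE against control (adjusted p = 5.11e-08). A dimmer Ern1 probe was not called in DDE against control (log2 change 0.18, adjusted p = 0.11) and was called higher in the other comparisons.

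Eif2ak3 encodes PERK, the eIF2 kinase of the ER. It stood at 0.43, 0.25, 0.22 and 0.35 on the PXDDE arrays, at -0.11, 0.00, 0.06 and 0.13 on the DDE arrays and at -0.24, -0.35, -0.38 and -0.44 on the control arrays, again with no overlap between groups. The changes were 1.29-fold, 1.23-fold and 1.59-fold in DDE against control, PXDDE against DDE and PXDDE against control (adjusted p = 0.000824, 0.00371 and 3.59e-06). A second, much dimmer probe was called in none of the 3, with log2 changes of 0.11, 0.07 and 0.18 and adjusted p of 0.709, 0.827 and 0.492.

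Atf6 encodes the membrane-bound factor that is cleaved in the Golgi under stress. On the PXDDE arrays it read -0.08, -0.10, -0.33 and -0.23, on the DDE arrays -0.43, -0.34, -0.39 and -0.15, and on the control arrays -0.86, -0.79, -0.76 and -0.82. PXDDE and DDE arrays overlapped and all 8 lay above the control arrays. Atf6 rose 1.39-fold in DDE against control (adjusted p = 0.000218) and 1.54-fold in PXDDE against control (adjusted p = 1.02e-05). In PXDDE against DDE its log2 change was 0.15 (95% interval -0.01 to 0.30, adjusted p = 0.112), and a rise was called once arrays were centred on their medians (0.29, adjusted p = 0.00772) or without DDE replicate 4 or PXDDE replicate 3 (adjusted p = 0.0262 and 0.0419).

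Creb3l3 encodes CREBH, a liver-enriched relative of ATF6 with roles in the acute phase response and in lipid metabolism. Its levels were 6.79, 6.85, 6.79 and 6.99 on the PXDDE arrays, 7.15, 6.89, 6.95 and 6.90 on the DDE arrays and 6.59, 6.57, 6.45 and 6.45 on the control arrays. The PXDDE and DDE arrays overlapped, and both groups lay above the control arrays. Creb3l3 rose 1.37-fold in DDE against control (adjusted p = 0.000267) and 1.26-fold in PXDDE against control (adjusted p = 0.0011). Its log2 change in PXDDE against DDE was -0.12 (adjusted p = 0.175), but 0.16 and called higher with quantile normalisation and 0.17 and called higher in the deposited values.

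Xbp1, whose mRNA is the substrate of IRE1, was read by 3 probes. The brightest gave 6.86, 6.80, 6.78 and 6.87 on the PXDDE arrays, 6.63, 6.61, 6.67 and 6.72 on the DDE arrays and 6.63, 6.62, 6.53 and 6.51 on the control arrays. By that probe the DDE and control arrays overlapped and the PXDDE arrays lay above both. Xbp1 rose 1.12-fold in PXDDE against DDE (adjusted p = 0.00945) and 1.19-fold in PXDDE against control (adjusted p = 0.000362), and its log2 change in DDE against control was 0.09 (adjusted p = 0.138). That probe was called higher in DDE against control in the authors' deposited values (0.25, adjusted p = 0.00116), with quantile normalisation (0.23, adjusted p = 0.00134) and once arrays were centred on their medians (0.32, adjusted p = 0.000264). The other probes were called higher in all 3 comparisons. Their log2 changes were 0.26 and 0.30 in DDE against control (adjusted p = 0.0202 and 0.00453), 0.30 and 0.36 in PXDDE against DDE, and 0.56 and 0.66 in PXDDE against control. None of these probes is known here to separate the spliced from the unspliced mRNA.

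**Figure D2:**
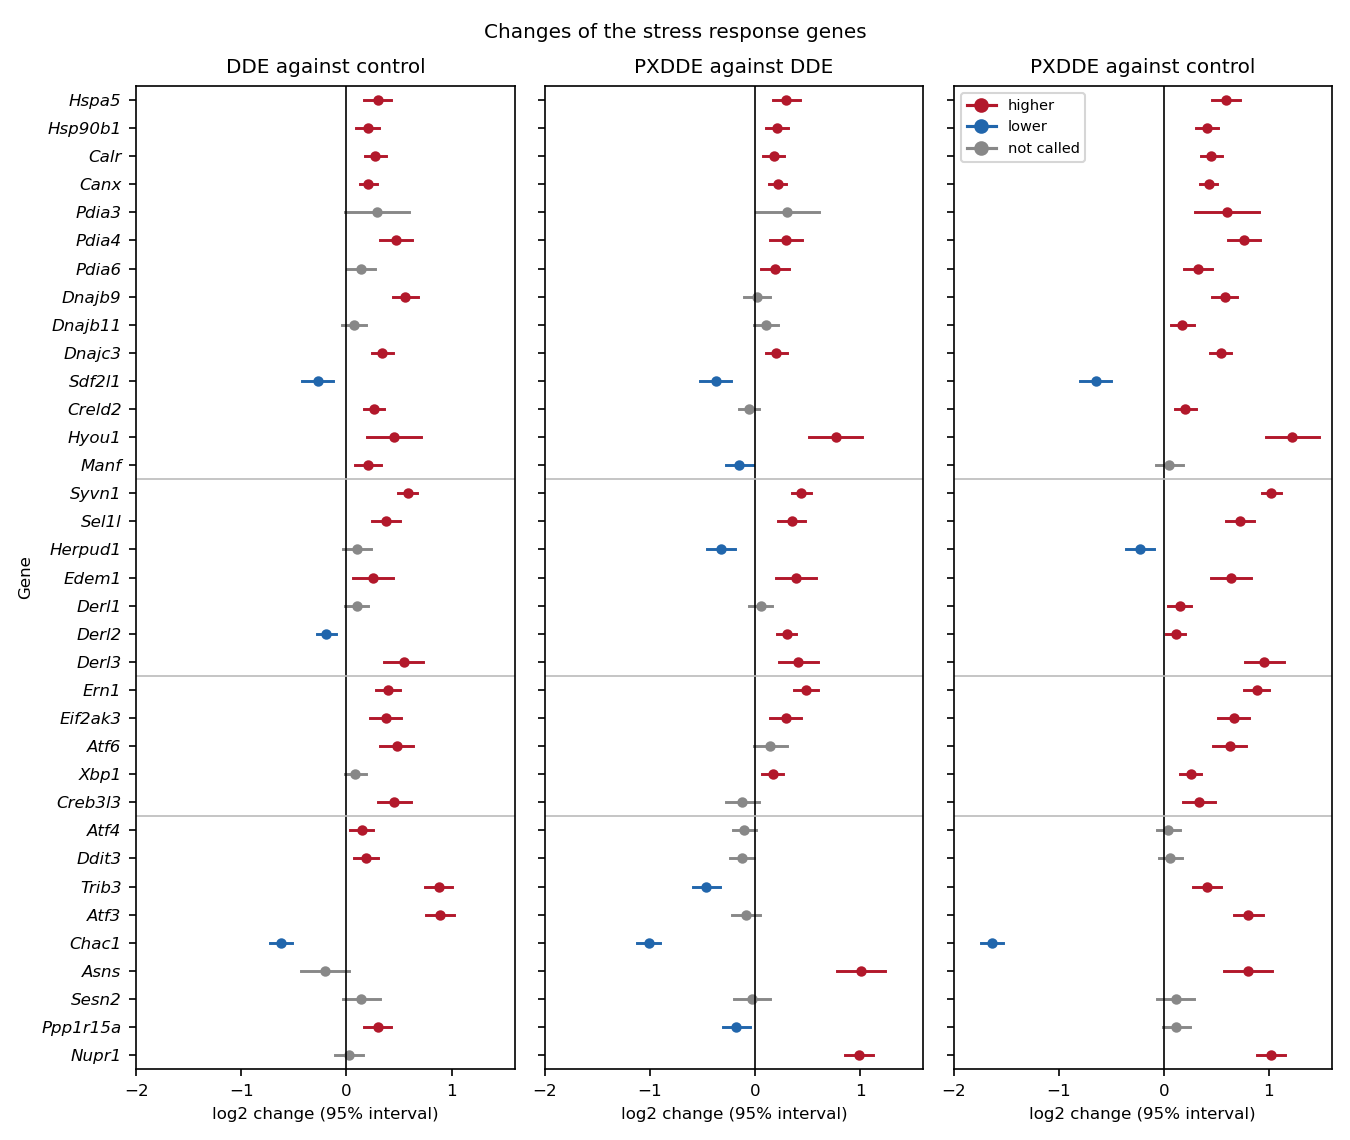
Points are log2 changes of the 35 genes in each comparison (horizontal axis), with 95% intervals from the limma fit, and colours mark genes called higher, called lower and not called. The chaperone, degradation and sensor genes lie mostly right of 0 in the 3 panels, whereas the ATF4-CHOP genes at the bottom spread from -1.64 for Chac1 to 1.02 for Nupr1 in PXDDE against control.

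Of the 14 ER chaperones and folding genes, 10 were called higher and 1 lower in DDE against control, with a median log2 change of 0.27. In PXDDE against DDE 8 were called higher and 2 lower (median 0.19), and in PXDDE against control 12 were called higher and 1 lower (median 0.44). The shares called higher were 71.4%, 57.1% and 85.7% in DDE against control, PXDDE against DDE and PXDDE against control, against 24%, 20.2% and 31.6% of all genes. Those called lower were 7.14%, 14.3% and 7.14%, against 26.3%, 29.7% and 39.3%. Hspa5 encodes BiP, the main Hsp70 chaperone of the ER, which also holds the sensors inactive. Its level was 6.99, 6.92, 6.88 and 7.03 on the PXDDE arrays, 6.79, 6.54, 6.64 and 6.68 on the DDE arrays and 6.33, 6.45, 6.37 and 6.31 on the control arrays, with no overlap between the groups. Hspa5 rose 1.23-fold in DDE against control (adjusted p = 0.00156), 1.23-fold in PXDDE against DDE (adjusted p = 0.00158) and 1.51-fold in PXDDE against control (adjusted p = 3.24e-06). The first and second Hspa5 probes printed earlier gave log2 changes of 0.52 and 0.50 in DDE against control, 0.23 and 0.37 in PXDDE against DDE, and 0.74 and 0.87 in PXDDE against control, all called higher.

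Hyou1, a large Hsp70 relative that works as an exchange factor for BiP, had the largest fold of the 14 in PXDDE against DDE and in PXDDE against control, but not in DDE against control, where Dnajb9 and Pdia4 had larger folds. It read -1.15, -0.66, -0.85 and -1.01 on the PXDDE arrays, -1.64, -1.96, -1.59 and -1.55 on the DDE arrays and -2.27, -2.22, -2.03 and -2.05 on the control arrays. No group overlapped another, though DDE replicate 2 lay close to the control arrays. The rise was 1.37-fold in DDE against control (adjusted p = 0.00682), 1.7-fold in PXDDE against DDE (adjusted p = 0.000229) and 2.33-fold in PXDDE against control (adjusted p = 2.07e-06). Its other kept probes were also called higher in the 3 comparisons.

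Dnajc3 encodes p58IPK, a J-domain partner of BiP that also restrains PERK. Its levels were 2.14, 2.03, 1.98 and 2.07 on the PXDDE arrays, 1.78, 1.87, 1.87 and 1.91 on the DDE arrays and 1.54, 1.51, 1.53 and 1.47 on the control arrays. The groups stood apart, and Dnajc3 rose 1.27-fold in DDE against control, 1.15-fold in PXDDE against DDE and 1.46-fold in PXDDE against control (adjusted p = 9.46e-05, 0.00354 and 7.75e-07). Dnajb9, which encodes ERdj4, a J-domain protein that represses IRE1, behaved otherwise. It read 3.73, 3.65, 3.58 and 3.64 on the PXDDE arrays, 3.50, 3.62, 3.73 and 3.68 on the DDE arrays and 3.11, 3.08, 3.07 and 3.02 on the control arrays. Both groups fed p,p'-DDE lay above the control arrays and overlapped each other. Dnajb9 rose 1.48-fold in DDE against control (adjusted p = 8.85e-06) and 1.49-fold in PXDDE against control (adjusted p = 2.02e-06), and its log2 change in PXDDE against DDE was 0.02 (95% interval -0.10 to 0.14, adjusted p = 0.812). With median centring Dnajb9 was called higher in PXDDE against DDE (0.16, adjusted p = 0.0337).

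The protein disulfide isomerase Pdia4 stood at 2.86, 3.17, 2.91 and 3.09 on the PXDDE arrays, 2.76, 2.66, 2.72 and 2.72 on the DDE arrays and 2.19, 2.21, 2.22 and 2.36 on the control arrays. The groups did not overlap, and Pdia4 rose 1.39-fold, 1.22-fold and 1.7-fold in DDE against control, PXDDE against DDE and PXDDE against control (adjusted p = 0.000226, 0.00512 and 1.73e-06). Canx encodes calnexin, a lectin that holds glycoproteins while they fold. It read 5.47, 5.45, 5.48 and 5.46 on the PXDDE arrays, 5.23, 5.25, 5.26 and 5.27 on the DDE arrays and 5.01, 5.11, 5.02 and 5.02 on the control arrays. The arrays of a group agreed closely, and changes of 1.16-fold, 1.16-fold and 1.34-fold were called in the 3 comparisons in the same order (adjusted p = 0.000608, 0.000501 and 8.87e-07). Its soluble counterpart Calr (calreticulin) and Hsp90b1 (GRP94, the ER Hsp90) rose in the 3 comparisons as well, by 1.13-fold to 1.37-fold and by 1.15-fold to 1.33-fold.

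Sdf2l1, a component of the BiP chaperone complex and usually counted among unfolded protein response targets, went the other way. Its levels were 1.32, 1.44, 1.32 and 1.53 on the PXDDE arrays, 1.92, 1.69, 1.73 and 1.77 on the DDE arrays and 1.99, 2.04, 2.00 and 2.16 on the control arrays. The groups did not overlap, with PXDDE lowest and control highest. Sdf2l1 fell in DDE against control (1.21-fold lower, adjusted p = 0.00571), in PXDDE against DDE (1.3-fold lower, adjusted p = 0.000774) and in PXDDE against control (1.57-fold lower, adjusted p = 4.56e-06). With median centring the change in DDE against control was -0.04 and not called. Manf, a secreted factor kept in the ER by BiP, stood at 3.79, 3.81, 3.65 and 3.85 on the PXDDE arrays, 3.88, 3.96, 3.96 and 3.90 on the DDE arrays and 3.73, 3.63, 3.68 and 3.84 on the control arrays. The DDE arrays lay above all others. Manf rose 1.15-fold in DDE against control (adjusted p = 0.0115) and fell in PXDDE against DDE (1.11-fold lower, adjusted p = 0.0474), a call lost without any one of control replicate 1 or 3, DDE replicate 2, 3 or 4, or PXDDE replicate 1, 2 or 3, with adjusted p of 0.0586 to 0.13. The fall was also lost under each of the 4 other scalings, with adjusted p of 0.372 in the deposited values, 0.214 after quantile normalisation, 0.124 after normexp and 0.95 once arrays were centred on their medians. Its rise was lost with quantile normalisation (adjusted p = 0.0529) and also in the values the authors deposited, at an adjusted p of 0.0753. A second Manf probe was called higher in DDE against control (log2 change 0.27, adjusted p = 0.00438) in the fit of every kept probe. In that fit it was called lower in PXDDE against DDE (-0.22, adjusted p = 0.0136), while the brightest probe was not called there (adjusted p = 0.0563).

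Creld2, an isomerase-like protein secreted under ER stress, rose 1.2-fold in DDE against control and 1.15-fold in PXDDE against control, with a log2 change of -0.06 in PXDDE against DDE (adjusted p = 0.314). Pdia6 and Pdia3, further disulfide isomerases, and Dnajb11 (ERdj3, a J-domain partner of BiP) were not called in DDE against control, with log2 changes of 0.14, 0.29 and 0.08. Other scalings gave rises in that comparison: Pdia6 was called at 0.25 with quantile normalisation, 0.37 with median centring and 0.21 in the deposited values (adjusted p = 0.000746, 0.00069 and 0.0032), and Pdia3 at 0.52 and Dnajb11 at 0.31 with median centring (adjusted p = 0.00645 and 0.000919). All 3 rose in PXDDE against control, by 1.25-fold, 1.51-fold and 1.13-fold. Pdia6 rose 1.14-fold in PXDDE against DDE (adjusted p = 0.0221), a call lost without DDE replicate 2 or 4 or PXDDE replicate 1 or 4 (adjusted p = 0.0521 to 0.0619). Pdia3 and Dnajb11 were not called in PXDDE against DDE (log2 changes 0.31 and 0.10, adjusted p = 0.084 and 0.123). Under each of the 4 other scalings both were called higher in that comparison, at 0.329 to 0.451 and 0.142 to 0.245. Pdia3 varied most among the control arrays, at 3.54, 4.01, 4.03 and 4.21, which set its wide interval in DDE against control (-0.01 to 0.59). With the slide as a block Pdia3 was called higher there (0.38, adjusted p = 0.0432). Its second probe was called higher there too, with a log2 change of 0.50 (adjusted p = 0.0233).

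Of the 7 genes of ER-associated degradation, which moves misfolded proteins out of the ER to the proteasome, 4 were called higher and 1 lower in DDE against control (median log2 change 0.25). In PXDDE against DDE 5 were called higher and 1 lower (median 0.35), and in PXDDE against control 6 and 1 (median 0.64). The shares called higher were 57.1%, 71.4% and 85.7%, against the same shares of all genes as for the chaperones. The share called lower was 14.3% in each comparison, against 26.3%, 29.7% and 39.3% of all genes. Syvn1 encodes HRD1, the ubiquitin ligase at the centre of the pathway. It read 5.43, 5.47, 5.49 and 5.51 on the PXDDE arrays, 5.11, 5.01, 5.03 and 5.0 on the DDE arrays and 4.51, 4.39, 4.46 and 4.45 on the control arrays. The gaps between the groups were several times the spread within them. Syvn1 rose 1.5-fold in DDE against control (adjusted p = 8.1e-07), 1.36-fold in PXDDE against DDE (adjusted p = 7.5e-06) and 2.03-fold in PXDDE against control (adjusted p = 2.63e-09).

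Sel1l, the adaptor that holds HRD1 in place, followed the same order. Its levels were 3.61, 3.69, 3.50 and 3.68 on the PXDDE arrays, 3.39, 3.19, 3.29 and 3.22 on the DDE arrays and 2.85, 2.96, 2.84 and 2.94 on the control arrays, without overlap. The rises were 1.3-fold, 1.27-fold and 1.65-fold in DDE against control, PXDDE against DDE and PXDDE against control (adjusted p = 0.000343, 0.000581 and 6.87e-07). Edem1, a lectin that marks glycoproteins for degradation, read 3.44, 3.33, 3.40 and 3.32 on the PXDDE arrays, 2.75, 3.09, 3.04 and 3.05 on the DDE arrays and 2.52, 2.78, 2.79 and 2.85 on the control arrays. DDE replicate 1 lay within the control range and the PXDDE arrays lay above all others. Edem1 rose 1.31-fold in PXDDE against DDE (adjusted p = 0.00296) and 1.56-fold in PXDDE against control (adjusted p = 3.88e-05). The rise of 1.19-fold in DDE against control (adjusted p = 0.0312) was lost without control replicate 1 or without DDE replicate 2, 3 or 4 (adjusted p = 0.0743 to 0.0838), and a second probe did not show it (log2 change -0.03, adjusted p = 0.702). It was not called with quantile normalisation (adjusted p = 0.108) or in the deposited values either (adjusted p = 0.173).

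The derlins, membrane proteins of the exit channel, did not move alike. Derl3 stood at 0.36, 0.50, 0.47 and 0.52 on the PXDDE arrays, 0.20, -0.01, 0.00 and 0.01 on the DDE arrays and -0.48, -0.38, -0.75 and -0.37 on the control arrays. The groups did not overlap, and Derl3 rose 1.46-fold, 1.33-fold and 1.94-fold in DDE against control, PXDDE against DDE and PXDDE against control (adjusted p = 0.000315, 0.00203 and 1.32e-06). The pancreas makes much of this protein, and the acinar marker sums given above lay highest on the PXDDE arrays but lower on the DDE arrays than on the control arrays. Their part in the Derl3 result was not tested.

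Derl2 read 5.95, 5.90, 5.87 and 5.89 on the PXDDE arrays, 5.62, 5.58, 5.63 and 5.57 on the DDE arrays and 5.87, 5.80, 5.76 and 5.73 on the control arrays. The DDE arrays lay below all others. Derl2 fell in DDE against control (1.14-fold lower, adjusted p = 0.00253) and rose 1.23-fold in PXDDE against DDE (adjusted p = 0.000104), with 1.08-fold in PXDDE against control (adjusted p = 0.0273). With median centring its change in DDE against control was 0.04 and not called, and the small rise in PXDDE against control was lost without any one of control replicates 2, 3 and 4 or PXDDE replicates 1 and 2 (adjusted p = 0.0506 to 0.0715) and with the slide as a block (adjusted p = 0.0544). A second Derl2 probe was not called in DDE against control (log2 change -0.12, adjusted p = 0.0902). That probe was called higher in PXDDE against DDE and in PXDDE against control (0.44 and 0.32, adjusted p = 6.23e-05 and 0.000237). Derl1 had a log2 change of 0.10 in DDE against control (adjusted p = 0.122) and rose 1.11-fold in PXDDE against control (adjusted p = 0.0172), a call lost without control replicate 3 (adjusted p = 0.0556) and with the slide as a block (adjusted p = 0.079). Derl1 was called higher in DDE against control with median centring (0.33, adjusted p = 0.000589), and in PXDDE against DDE with median centring and quantile normalisation (0.20 and 0.15, adjusted p = 0.0173 and 0.0175).

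Herpud1 encodes HERP, a scaffold of the HRD1 complex. Its levels were 5.36, 5.37, 5.33 and 5.40 on the PXDDE arrays, 5.72, 5.64, 5.76 and 5.64 on the DDE arrays and 5.73, 5.65, 5.52 and 5.45 on the control arrays. The PXDDE arrays lay below all others, and the DDE arrays overlapped the control arrays. In DDE against control Herpud1 was not called at 0.10 (adjusted p = 0.194), but was called higher with quantile normalisation and median centring (0.14 and 0.33, adjusted p = 0.0181 and 0.00101). It fell in PXDDE against DDE (1.25-fold lower, adjusted p = 0.00106) and in PXDDE against control (1.17-fold lower, adjusted p = 0.00609). The fall against control turned with the scaling: its log2 change was 0.06 with quantile normalisation, 0.15 with median centring and 0.01 in the deposited values, none of them called. The fall against DDE was not called with quantile normalisation (adjusted p = 0.148) or in the deposited values (adjusted p = 0.105). A second Herpud1 probe rose in DDE against control (log2 change 0.24, adjusted p = 0.0149) and was not called in PXDDE against DDE (-0.13, adjusted p = 0.13).

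**Figure D3:**
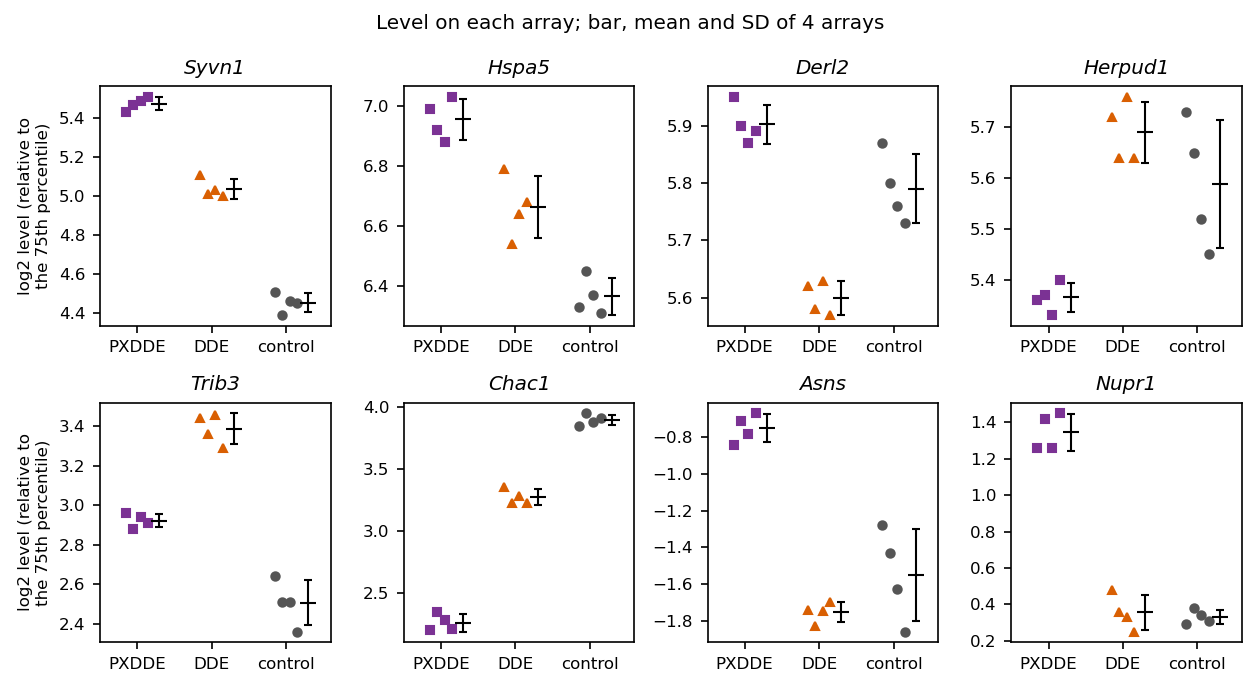
The panels give the log2 level of 8 genes on each array, relative to the 75th percentile of the array, with the PXDDE, DDE and control groups from left to right and the mean and SD of the 4 arrays beside them. Syvn1 and Hspa5 stood highest in PXDDE and lowest in control, Chac1 the other way round, Trib3 was highest in DDE, Derl2 was lowest in DDE by this scaling but not with median centring, and Asns and Nupr1 were high in PXDDE alone.

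Of the 9 ATF4-CHOP genes, 5 were called higher and 1 lower in DDE against control (median log2 change 0.14), or 55.6% and 11.1% against 24% and 26.3% of all genes. In PXDDE against DDE 2 were called higher and 3 lower (median -0.10), and their shares of 22.2% and 33.3% were near the 20.2% and 29.7% of all genes. In PXDDE against control 4 were called higher and 1 lower (median 0.12), or 44.4% and 11.1% against 31.6% and 39.3%. Atf4 itself, which is controlled mainly by translation, read 6.18, 6.19, 6.11 and 6.22 on the PXDDE arrays, 6.36, 6.21, 6.32 and 6.21 on the DDE arrays and 6.19, 6.14, 6.16 and 6.05 on the control arrays. The DDE arrays lay above the control arrays by a narrow margin. The rise of 1.1-fold in DDE against control (adjusted p = 0.033) was lost without control replicate 2 or 4 or DDE replicate 1 or 3 (adjusted p = 0.0621 to 0.0866), and with the slide as a block (adjusted p = 0.118). A second Atf4 probe was called higher in DDE against control and in PXDDE against control (log2 changes 0.21 and 0.24, adjusted p = 0.00195 and 0.000393). By the brightest probe the log2 change was -0.10 in PXDDE against DDE and 0.04 in PXDDE against control, neither called. Quantile normalisation gave 0.24 and 0.48 and the deposited values 0.18 and 0.37, all called higher, so the level of Atf4 in PXDDE livers depended on the scaling.

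Ddit3 encodes CHOP, a factor that drives cell death under lasting stress. It read -0.79, -0.84, -0.89 and -0.75 on the PXDDE arrays, -0.74, -0.67, -0.60 and -0.76 on the DDE arrays and -0.87, -0.86, -0.96 and -0.82 on the control arrays. The DDE arrays lay above the control arrays, and the PXDDE arrays overlapped both. Ddit3 rose 1.14-fold in DDE against control (adjusted p = 0.01), with a log2 change of -0.13 in PXDDE against DDE (adjusted p = 0.0615) and 0.06 in PXDDE against control (adjusted p = 0.296). It was called lower in PXDDE against DDE without PXDDE replicate 4 (adjusted p = 0.0474) and higher in PXDDE against control with quantile normalisation (adjusted p = 0.0256) and median centring (adjusted p = 2.81e-05). A much dimmer Ddit3 probe was not called, at -0.19 in DDE against control (adjusted p = 0.669).

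Trib3, a pseudokinase induced by ATF4 and CHOP, and Atf3, a stress-induced factor of the ATF/CREB family, had the largest rises under p,p'-DDE alone. Trib3 stood at 2.96, 2.88, 2.94 and 2.91 on the PXDDE arrays, 3.44, 3.36, 3.46 and 3.29 on the DDE arrays and 2.64, 2.51, 2.51 and 2.36 on the control arrays. The groups did not overlap and PXDDE lay between the other groups. Trib3 rose 1.84-fold in DDE against control (adjusted p = 5.22e-07), fell in PXDDE against DDE (1.38-fold lower, adjusted p = 7.54e-05) and was 1.33-fold higher in PXDDE against control (adjusted p = 6.97e-05). Atf3 read -0.04, 0.12, -0.01 and 0.01 on the PXDDE arrays, 0.22, 0.09, 0.13 and 0.01 on the DDE arrays and -0.72, -0.75, -0.92 and -0.73 on the control arrays. Both groups fed p,p'-DDE stood well above the control arrays and overlapped each other. The rises were 1.86-fold in DDE against control (adjusted p = 5.92e-07) and 1.74-fold in PXDDE against control (adjusted p = 3.82e-07), with a log2 change of -0.09 in PXDDE against DDE (adjusted p = 0.257).

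Chac1, which encodes an enzyme that breaks down glutathione and is a target of ATF4 and CHOP, went against them. Its levels were 2.20, 2.35, 2.28 and 2.21 on the PXDDE arrays, 3.36, 3.23, 3.28 and 3.23 on the DDE arrays and 3.85, 3.95, 3.88 and 3.91 on the control arrays. Every step down was far larger than the spread within a group. Chac1 fell in DDE against control (1.54-fold lower, adjusted p = 1.48e-06), in PXDDE against DDE (2.02-fold lower, adjusted p = 2.6e-08) and in PXDDE against control (3.11-fold lower, log2 change -1.64 with a 95% interval of -1.74 to -1.53, adjusted p = 1.55e-10). It was called lower under every alternative tried in the 3 comparisons. Chac1 was read by a single probe.

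Asns, the asparagine synthetase, read -0.84, -0.71, -0.78 and -0.67 on the PXDDE arrays, -1.74, -1.83, -1.75 and -1.70 on the DDE arrays and -1.28, -1.43, -1.63 and -1.86 on the control arrays. The PXDDE arrays lay above all others, the DDE arrays were tightly grouped and the control arrays were spread over a wider range that held them. Asns rose 2.01-fold in PXDDE against DDE (adjusted p = 1.36e-05) and 1.74-fold in PXDDE against control (adjusted p = 2.76e-05), and the Asns probe printed earlier was called higher in both with log2 changes of 1.15 and 1.05. In DDE against control the log2 change was -0.20 (adjusted p = 0.122), and without control replicate 4 it was -0.31 and called lower (adjusted p = 0.0087), as it was with the slide as a block (-0.26, adjusted p = 0.0491). Nupr1, a small stress-induced chromatin protein, showed the same contrast at 1.26, 1.42, 1.26 and 1.45 on the PXDDE arrays, 0.48, 0.36, 0.33 and 0.25 on the DDE arrays and 0.29, 0.38, 0.34 and 0.31 on the control arrays. Nupr1 rose 1.99-fold in PXDDE against DDE (adjusted p = 2.36e-07) and 2.03-fold in PXDDE against control (adjusted p = 5.41e-08), while its log2 change in DDE against control was 0.03 (adjusted p = 0.744), but 0.26 and called higher with median centring (adjusted p = 0.0116). Asns is abundant in the exocrine pancreas and Nupr1 is known for its induction in pancreatitis, and all 18 acinar markers rose in PXDDE against DDE, with a median log2 change of 2.33 over the markers. Their part in the Asns and Nupr1 results was not tested.

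Ppp1r15a encodes GADD34, which returns the phosphatase to eIF2 and ends the translation block. It read 2.72, 2.82, 2.86 and 2.84 on the PXDDE arrays, 3.16, 2.95, 2.89 and 2.94 on the DDE arrays and 2.66, 2.73, 2.68 and 2.69 on the control arrays. The DDE arrays lay above all others. Ppp1r15a rose 1.23-fold in DDE against control (adjusted p = 0.00156). In PXDDE against DDE it fell (1.13-fold lower, adjusted p = 0.0272), and the call was lost without PXDDE replicate 1 or 2 (adjusted p = 0.0725 and 0.051). It was also lost with quantile normalisation, median centring, normexp and the deposited values (adjusted p = 0.0532, 0.686, 0.0558 and 0.118). In PXDDE against control the log2 change of Ppp1r15a was 0.12 and not called (adjusted p = 0.0908). It was called higher there with median centring and normexp (0.495 and 0.163, adjusted p = 3.3e-05 and 0.0231), but not with quantile normalisation or in the deposited values. Sesn2, which encodes sestrin 2, a restraint on mTORC1 signalling, was called in none of the comparisons, with log2 changes of 0.14, -0.03 and 0.11 in DDE against control, PXDDE against DDE and PXDDE against control. Without control replicate 4 it was called higher in both comparisons with control (adjusted p = 0.0208 and 0.0268). With median centring it was called higher in both as well, at 0.37 in DDE against control and 0.49 in PXDDE against control (adjusted p = 0.00142 and 0.000115).

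**Figure D4:**
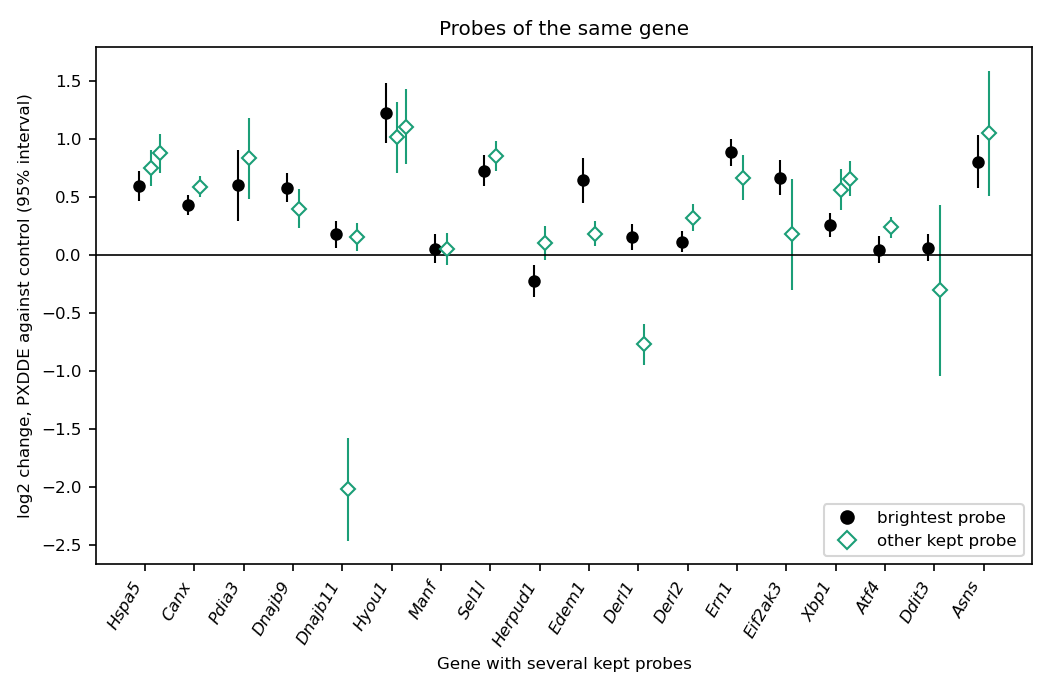
For the 18 genes with several kept probes, points give the log2 change in PXDDE against control of the brightest probe (filled) and the other kept probes (open), with 95% intervals. Most probes of a gene lie on the same side of 0; a dim Dnajb11 probe at -2.02 and a dim Derl1 probe at -0.77 lie far below the brightest probes of those genes.

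The choice of probe decided the direction for Dnajb11 and Derl1. The brightest Dnajb11 probe (chr16:22872067-22872126, mm9, plus strand) and its neighbour gave log2 changes of 0.18 and 0.15 in PXDDE against control, both called higher. The remaining probe, further downstream (chr16:22879612-22879671), above background on 9 of the 12 arrays, was called lower in the 3 comparisons at -0.92 in DDE against control, -1.11 in PXDDE against DDE and -2.02 in PXDDE against control. The second Derl1 probe (chr15:57711188-57711246, minus strand) was likewise called lower in the 3 comparisons, at -0.47, -0.30 and -0.77 in the same order. Among the 22 other kept probes of the 18 genes, 17 had the same call as the brightest probe in PXDDE against control and 2 had the opposite call. In DDE against control 11 of 22 had the same call, in PXDDE against DDE 17 of 22, and no opposite call was made in either.

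Wider lists of genes with the same roles were drawn up from textbook knowledge, with earlier results of these data known. Of 22 other genes of ER-associated degradation, 17 were called higher and 1 lower in DDE against control, 8 and 2 in PXDDE against DDE, and 15 and 1 in PXDDE against control, with median log2 changes of 0.27, 0.07 and 0.36. The shares called higher were 77.3%, 36.4% and 68.2%, against 24%, 20.2% and 31.6% of all genes in the 3 comparisons. Those called lower were 4.55%, 9.09% and 4.55%, against 26.3%, 29.7% and 39.3%. Vcp, the ATPase that pulls substrates out of the membrane, rose by 0.52, 0.59 and 1.11 on the log2 scale in the 3 comparisons in that order (adjusted p = 7.82e-06, 2.49e-06 and 5.06e-09). Os9, a lectin of the HRD1 complex, rose by 0.52, 0.42 and 0.94 (adjusted p = 2.81e-06, 1.41e-05 and 6.93e-09).

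Of 40 other genes of ER protein entry and folding, 22 were called higher and 3 lower in DDE against control. The counts were 17 and 7 in PXDDE against DDE, and 23 and 8 in PXDDE against control, with medians of 0.23, 0.10 and 0.38. The shares called higher were 55%, 42.5% and 57.5%, against 24%, 20.2% and 31.6% of all genes. Those called lower were 7.5%, 17.5% and 20%, against 26.3%, 29.7% and 39.3%. Stt3a, a catalytic subunit of the oligosaccharyltransferase, rose by 0.71 in DDE against control (adjusted p = 3.64e-05) and 1.31 in PXDDE against control (adjusted p = 8.53e-08). Uggt1, the sensor of glycoprotein folding, rose by 0.53 in PXDDE against DDE (adjusted p = 3.95e-06). The subunits of the Sec61 translocation channel differed: Sec61a1, the pore, rose by 0.32, 0.52 and 0.84 in DDE against control, PXDDE against DDE and PXDDE against control, whereas Sec61g changed by -0.29, -0.44 and -0.73 and was called lower in each.

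Among 22 other genes of eIF2 control and the stress sensors, 11 were called higher and 2 lower in DDE against control, 5 and 2 in PXDDE against DDE, and 15 and 3 in PXDDE against control, with medians of 0.19, 0.10 and 0.31. The shares called higher were 50%, 22.7% and 68.2%, against 24%, 20.2% and 31.6% of all genes, so only that in PXDDE against DDE was near it. Those called lower were 9.09%, 9.09% and 13.6%, against 26.3%, 29.7% and 39.3%. Eif2s1, the subunit of eIF2 that is phosphorylated, fell in PXDDE against DDE (log2 change -0.38, adjusted p = 0.000856). Ppp1r15b, the constitutive partner of the eIF2 phosphatase, rose by 0.32 in the same comparison.

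Of the 34 other ATF4 targets tested, 14 were called higher and 6 lower in DDE against control (41.2% and 17.6%, against 24% and 26.3% of all genes). Against DDE, PXDDE had 14 called higher and 9 lower (41.2% and 26.5%, against 20.2% and 29.7%), and in PXDDE against control 15 and 9 (44.1% and 26.5%, against 31.6% and 39.3%). The medians were 0.11, 0.10 and 0.08 in the 3 comparisons. Gdf15, a secreted stress hormone, had a mean level of 3.41 in PXDDE, 4.25 in DDE and 2.69 in control livers. It rose 2.95-fold in DDE against control (adjusted p = 3.73e-09) and fell in PXDDE against DDE (1.79-fold lower, adjusted p = 7.71e-07), the same order of groups as for Trib3. Phgdh, the first enzyme of serine synthesis, had a mean level of 0.04 in PXDDE, -1.75 in DDE and -1.01 in control livers, and rose 3.44-fold in PXDDE against DDE (adjusted p = 4.02e-09). Psat1, the next enzyme of that pathway, fell in the same comparison (1.72-fold lower, adjusted p = 1.03e-06). Slc7a1, an importer of cationic amino acids, rose 2.82-fold there (adjusted p = 1.22e-06).

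**Figure D5:**
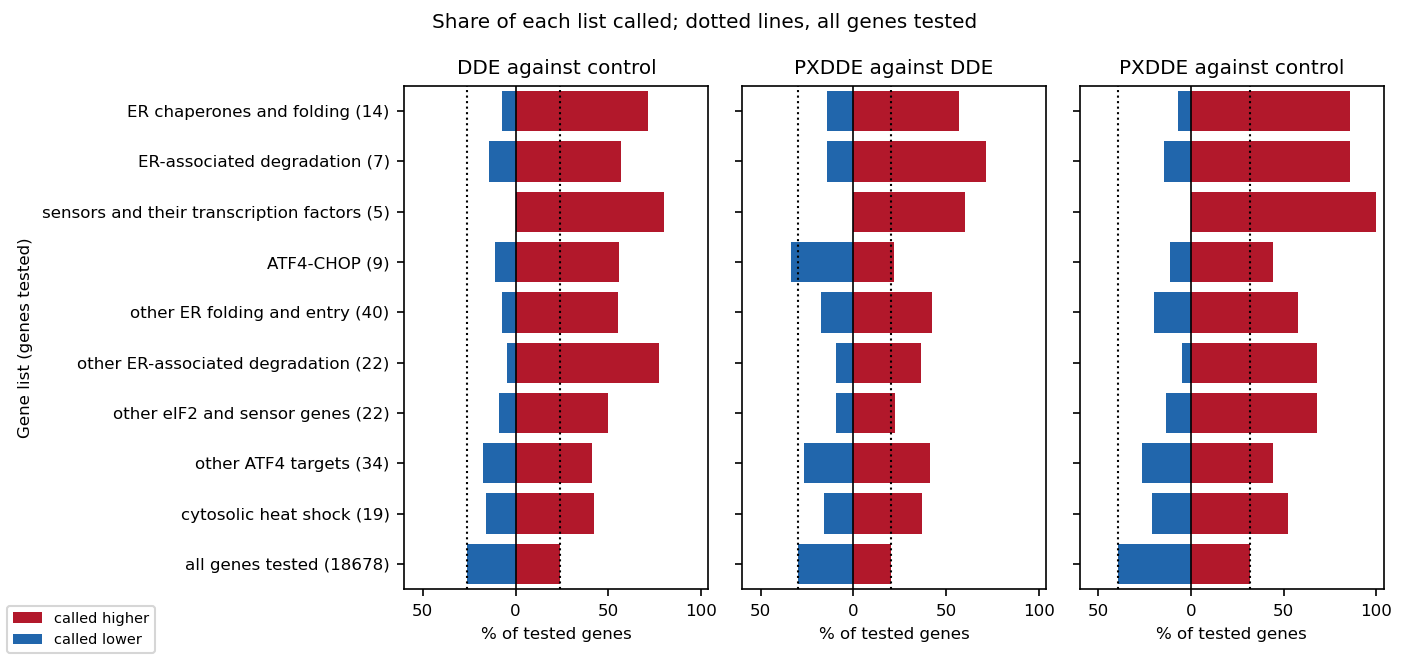
Bars give the percentage of each list called higher (red, right of 0) and called lower (blue, left of 0) in each comparison, with the number of genes tested in brackets and dotted lines at the percentages over all 18678 genes tested. The red bars of the chaperone, degradation and sensor lists pass the dotted line in each panel, while for the ATF4-CHOP genes in PXDDE against DDE 22.2% were called higher and 33.3% lower, close to the 20.2% and 29.7% of all genes.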

How the data were processed

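Liver RNA of 12 samples in 3 groups was measured on one-colour (Cy3) Agilent arrays. The deposited scanner files hold an intensity per spot. Per the file headers, Agilent Feature Extraction 11.5.1.1 had already subtracted background and detrended the processed signal within each array. The authors also deposited log2 values of the same arrays, with column medians of 5.3243 to 5.3479; the submitters' processing notes name RMA and limma for the series, and how those values were made is not stated in the sources used here. They were used as an alternative. Control and outlier spots were left out, log2 processed signal was set relative to the 75th percentile of its array, and spots of a probe were averaged. Probes had to be well above background on every array of 1 group or more, which 27098 of 56605 were, and the brightest kept probe stood for each of 18678 genes. Gene names and mm9 coordinates come from the scanner files; names can be old, and mismatches between these probes and Mus spretus were not checked. Levels of different probes are not compared.

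The test was limma 3.58.1 (R 4.3.3, with data.table in version 1.17.8), with all 12 arrays in 1 fit and 9 residual degrees of freedom, eBayes and Benjamini-Hochberg adjustment over all genes. The code was tested on simulated data first. Alternatives were quantile normalisation, median centring, normexp background correction with an offset of 50, the deposited log2 values, other filters on dim probes, averaging the probes of a gene, outlier spots kept, only the groups compared, the replicate number or slide as a block, and each array left out. A fit of every kept probe was added after seeing the data. The arrays lay on 5 slides. On each slide with both groups of a comparison, of which there were 3 per comparison, all called members kept their sign (26, 24 and 30 members in DDE against control, PXDDE against DDE and PXDDE against control). The members were called on these same arrays, and the groups did not overlap for nearly all of them. The sign within a slide was thus largely fixed in advance, and it cannot show whether the slides matter.

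The members and lists were chosen with earlier results of these data known. Values on every array are given for up to 5 members of each role with the smallest p, for members called against the majority of their role, and for Xbp1, Atf4, Ddit3, Atf6 and Creb3l3; Hspa5, Ppp1r15a and the control arrays of Pdia3 were added after their values were seen. From each wider list up to 4 genes with the smallest p per comparison could be named. The number of arrays limits the precision. Promoter and protein sequences were not used here.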

Additional observations from a re-analysis of the deposited data

Results flagged for a closer look

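In 5 of 105 sets of 4 arrays tested (35 genes in 3 groups), 1 array stood apart from the other 3 by more than the 95% critical value of Dixon's test, and chance alone marks about 1 set in 20. Edem1 read 2.75 in DDE replicate 1, with the nearest DDE array at 3.04. Derl3 read 0.20 in DDE replicate 1, with the nearest at 0.01. Canx stood at 5.11 in control replicate 2 (nearest 5.02) and Pdia4 at 2.36 in control replicate 4 (nearest 2.22). Dnajb11 read 3.91 in PXDDE replicate 3, with the nearest at 4.06.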

How the results depend on the processing

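Without any one array, the counts of members called higher were 21 to 24 in DDE against control, 17 to 20 in PXDDE against DDE and 25 to 28 in PXDDE against control, and of members called lower 3 to 4, 4 to 7 and 3 to 3; all genes called numbered 8480 to 9444, 8216 to 9389 and 12599 to 13517. Members called lower in PXDDE against DDE numbered 3 with quantile normalisation and 3 in the deposited values, and in DDE against control 1 with median centring and 5 with the mean of a gene's probes. With no filter on dim probes 14103 genes were called in PXDDE against DDE and 21803 in PXDDE against control. Among changes called at the main settings or under the alternative, some turned sign. In PXDDE against DDE these were Atf4 at 0.24 and Creb3l3 at 0.16 with quantile normalisation, and at 0.18 and 0.17 in the deposited values. Herpud1 in PXDDE against control turned to 0.063, 0.15 and 0.007 with quantile normalisation, median centring and the deposited values, and Derl2 in DDE against control to 0.041 with median centring. With the mean of a gene's probes, DDE against control gave Ddit3 -0.002, Derl1 -0.19 and Dnajb11 -0.24; Dnajb11 was -0.32 in PXDDE against DDE, and in PXDDE against control Derl1 was -0.31 and Dnajb11 -0.56, since dimmer probes of these genes enter the mean. Taken alone, the other Dnajb11 and Derl1 probes gave -0.919 and -0.472 in DDE against control, -1.105 and -0.301 in PXDDE against DDE and -2.024 and -0.773 in PXDDE against control, and in DDE against control those of Edem1 and Ddit3 gave -0.025 and -0.191; others gave 0.027 for Atf4 in PXDDE against DDE and 0.1 for Herpud1 in PXDDE against control. Some changes called in neither setting also turned sign. Creld2, Atf3, Ddit3 and Sesn2 in PXDDE against DDE turned positive under other scalings, with highest values of 0.086, 0.055, 0.018 and 0.115. Asns in DDE against control reached 0.027. The cause of turns not tied to dimmer probes was not tested. Replicate numbers did not pair the arrays (correlations of deviations from -0.369 to 0.132); with the replicate block Atf4 in DDE against control (adjusted p = 0.0558), Ppp1r15a (adjusted p = 0.0652) and Manf (adjusted p = 0.0724) in PXDDE against DDE were no longer called. With the slide as a block Atf4 in DDE against control and Derl1 and Derl2 in PXDDE against control were no longer called (adjusted p = 0.118, 0.079 and 0.0544), and Asns and Pdia3 in DDE against control were called (adjusted p = 0.0491 and 0.0432).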

Other observations

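The cytosolic heat shock genes, which answer misfolding outside the ER, numbered 19. In DDE against control 8 were called higher and 3 lower (42.1% and 15.8%, against 24% and 26.3% of all genes). PXDDE against DDE gave 7 and 3 (36.8% and 15.8%, against 20.2% and 29.7%), and in PXDDE against control 10 and 4 (52.6% and 21.1%, against 31.6% and 39.3%). Hspa1a, the stress-inducible Hsp70, had a mean level of 0.38 in PXDDE, -1.39 in DDE and -0.78 in control livers. It fell in DDE against control (1.53-fold lower, adjusted p = 4.59e-06) and rose 3.41-fold in PXDDE against DDE (adjusted p = 5.69e-10), and its near-identical copy Hspa1b rose 2.16-fold in PXDDE against DDE, so the probes may share signal. Bag3, a partner of Hsp70, rose by 0.54 on the log2 scale in PXDDE against DDE. Cryab, a small heat shock protein abundant in muscle, fell in DDE against control (2.35-fold lower, adjusted p = 1.18e-08), and the 10 skeletal muscle markers fell in the same comparison with a median log2 change of -1.33; their part in the Cryab result was not tested.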
